A study of Mus musculus with 4 samples.

Results

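The 10 genes described here mark or maintain spermatogonial stem and progenitor cells: Gfra1, Id4, Zbtb16, Ret, Etv5, Nanos2, Nanos3, Lin28a, Sall4 and Kit. They were taken by name from a table of 22073 gene identifiers, and all 10 are in it. The table holds messenger RNA levels of the right testis of mature KM mice, an outbred strain. In the 2 hemicastrated mice the left testis had been removed before puberty, and the 2 controls were sham-operated at that time. The comparison asks whether the adult testis that grew up without its partner expresses genes of its stem and progenitor pool at another level. Ages are not given in the sources used here, no other allele or agent is named, and the protocol mentions 3 animals in each group where the design text and the labels give 2. The labels also name the molecule as genomic DNA, and the values were read as RNA because the extraction and library protocol describes RNA.

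Spermatogenesis is fed by undifferentiated spermatogonia on the basement membrane of the seminiferous tubule. Sertoli and peritubular cells secrete the growth factor GDNF, which binds the co-receptor encoded by Gfra1 and thereby activates the receptor tyrosine kinase Ret. Signalling through this pair maintains Etv5, Id4 and other regulators of self-renewal. As the cells respond to retinoic acid they gain the receptor Kit, whose ligand is made by Sertoli cells, and become differentiating spermatogonia.

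These cells are a small share of an adult testis, which is dominated by spermatocytes and spermatids, and the levels were low. Levels are in FPKM (fragments scaled to transcript length and to the number of mapped fragments), so they can be compared between genes. Read depth is unknown. A mean of at least 1 FPKM, the limit used for testing, was reached by 4 of the 10 genes: Id4, Kit, Etv5 and Gfra1. Lin28a, Nanos3, Zbtb16, Ret and Sall4 were above 0 but under that limit, and Nanos2 was listed at 0 in all 4 libraries. None of the 9 genes with values passed the test between hemicastrated and control testes.

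The promoters of 3 of the genes are shown because their genes stand out in the values: Id4 with the highest level, Gfra1 with the lowest ratio of hemicastrated to control, and Nanos2, for which the files list 0. RefSeq promoter sequences (GRCm38.p6, 250 bases before to 50 after the start of transcription, gene strand, 5′ to 3′) were found for 7 of the 10 genes. Capitals mark CG dinucleotides, the sites of DNA methylation in mammals.
Id4, chr13:48260866-48261165, plus strand: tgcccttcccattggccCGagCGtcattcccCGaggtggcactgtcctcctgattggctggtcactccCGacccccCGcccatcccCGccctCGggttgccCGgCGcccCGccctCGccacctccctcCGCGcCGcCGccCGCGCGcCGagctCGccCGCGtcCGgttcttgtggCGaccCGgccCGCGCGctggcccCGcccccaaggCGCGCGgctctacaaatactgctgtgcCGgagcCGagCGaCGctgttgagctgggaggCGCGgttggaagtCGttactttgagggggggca
Gfra1, chr19:58455349-58455648, minus strand: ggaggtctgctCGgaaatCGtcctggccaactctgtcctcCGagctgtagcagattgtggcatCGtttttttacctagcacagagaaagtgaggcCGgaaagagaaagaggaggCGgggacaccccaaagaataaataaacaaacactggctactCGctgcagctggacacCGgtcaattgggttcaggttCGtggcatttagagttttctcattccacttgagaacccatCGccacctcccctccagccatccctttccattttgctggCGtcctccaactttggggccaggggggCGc
Nanos2, chr7:18987274-18987573, plus strand: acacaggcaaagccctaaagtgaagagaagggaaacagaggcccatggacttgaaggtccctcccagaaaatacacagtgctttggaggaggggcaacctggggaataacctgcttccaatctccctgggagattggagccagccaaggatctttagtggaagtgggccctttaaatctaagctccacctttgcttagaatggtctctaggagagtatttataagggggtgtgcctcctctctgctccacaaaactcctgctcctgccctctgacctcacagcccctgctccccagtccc

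The Id4 window held 39 CG dinucleotides, the Gfra1 window 12 and the Nanos2 window 0. Over 27025 promoters, 1 per gene, the median was 7, and 4.29% had as many as Id4 or more. Among the other genes with a sequence, Etv5 had 37, Kit 20, Lin28a 10 and Nanos3 3. The motif GGGCGG, searched on both strands, occurred 5 times in the Id4 window and 3 times in that of Etv5, and was not in the Gfra1 and Nanos2 windows. It was present in 35.9% of all promoters. DNA methylation was not analysed here, and these counts describe the letters alone.

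Among the 9 genes above 0 the order of levels ran from Id4 through Kit, Etv5, Gfra1, Lin28a, Nanos3, Zbtb16 and Ret to Sall4. Id4 stood apart, with its lowest library at 8.96 FPKM against 2.89 FPKM in the highest library of Kit. The ranges over the 4 libraries overlapped between Kit and Etv5, between Nanos3 and Zbtb16, and between Ret and Sall4, so that the order within these pairs is not resolved. The other neighbouring pairs of the 9 were separate. Of all 22073 identifiers, 22.9% had a higher mean than Id4, 42.1% a higher one than Kit, 48.7% a higher one than Gfra1 and 65.4% a higher one than Sall4.

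**Figure D1:**
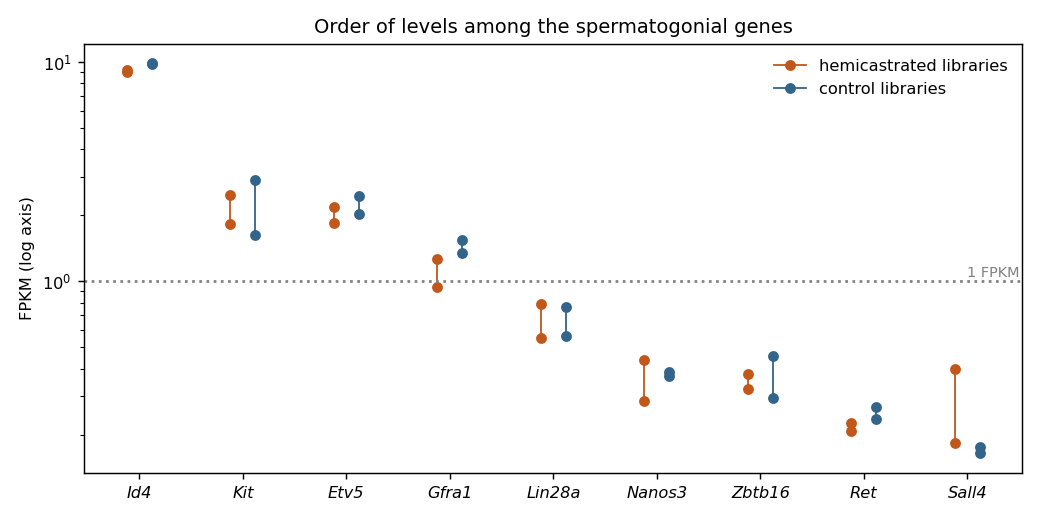
FPKM on a log axis of the 9 genes above 0, each library as a point and the 2 libraries of a group joined by a line, hemicastrated left of control. Id4 lies near 9 to 10 FPKM, 3 genes lie around or above 1 FPKM and 5 below it, and hemicastrated 2 stands apart in Sall4.

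Together the 10 genes summed to 16.5 and 16.0 FPKM in the hemicastrated libraries, against 18.7 and 16.5 FPKM in the controls. Without Id4 the sums were 7.27 and 7.04 FPKM in the hemicastrated libraries and 8.94 and 6.63 FPKM in the controls. The control values without Id4 enclosed the hemicastrated ones. In bulk tissue, fewer cells of a type and less RNA per cell cannot be told apart, and this holds for each value given here.

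The libraries differed in genes of epididymal epithelium and in genes of peritubular myoid cells and smooth muscle. Of 7 genes of epididymal epithelium, 5 were tested and 4 fell, with Crisp1 at 0.0453 and 0.0391 FPKM in the hemicastrated libraries and 545 and 786 FPKM in the controls. The 7 summed to 6.30 and 8.30 FPKM in the hemicastrated libraries and 1094 and 1507 FPKM in the controls, while the epididymal gene Lcn8 was at 0 in all 4. Of 6 peritubular myoid and smooth muscle genes 5 were called lower, and in all 6 both hemicastrated values lay below both controls. The 6 summed to 30.6 and 27.7 FPKM in the hemicastrated libraries and 97.2 and 76.7 FPKM in the controls. Of 5 late spermatid genes 0 were called, with 4 log2 fold changes above 0 and 1 below it. They summed to 21318 and 21292 FPKM in the hemicastrated libraries and 18784 and 20193 FPKM in the controls. Prm2 and Tnp1 were higher in both hemicastrated libraries. The groups overlapped for Prm1, at 5732 and 6458 FPKM in the hemicastrated libraries and 5802 and 5995 FPKM in the controls. The part of these differences in the values of the stem and progenitor genes was not tested. Whether the 2 libraries of a group vary as mice do rests on the statement that each came from its own animal.

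Of the 4 stem and progenitor genes tested, 0 passed in limma at a Benjamini-Hochberg adjusted p under 0.05, and 0 had an unadjusted p under 0.05. Over all 11343 genes tested, 1.30% passed, 1.19% lower and 0.106% higher after hemicastration. Without a limit on low values 0 of 9 passed, beside 0.646% of 18587 genes. The lowest adjusted p of any of the genes under any alternative setting was 0.584, for Gfra1 without hemicastrated 2 (limma). The groups did not overlap in 3 of 9 genes with hemicastrated lower and in 1 of 9 with hemicastrated higher. Among all genes above 0 these shares were 24.5% and 14.8%, so the count for the 9 genes lies near the background. With 2 libraries against 2, an exact two-sided permutation test of 1 gene cannot give a p below 0.333.

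**Figure D2:**
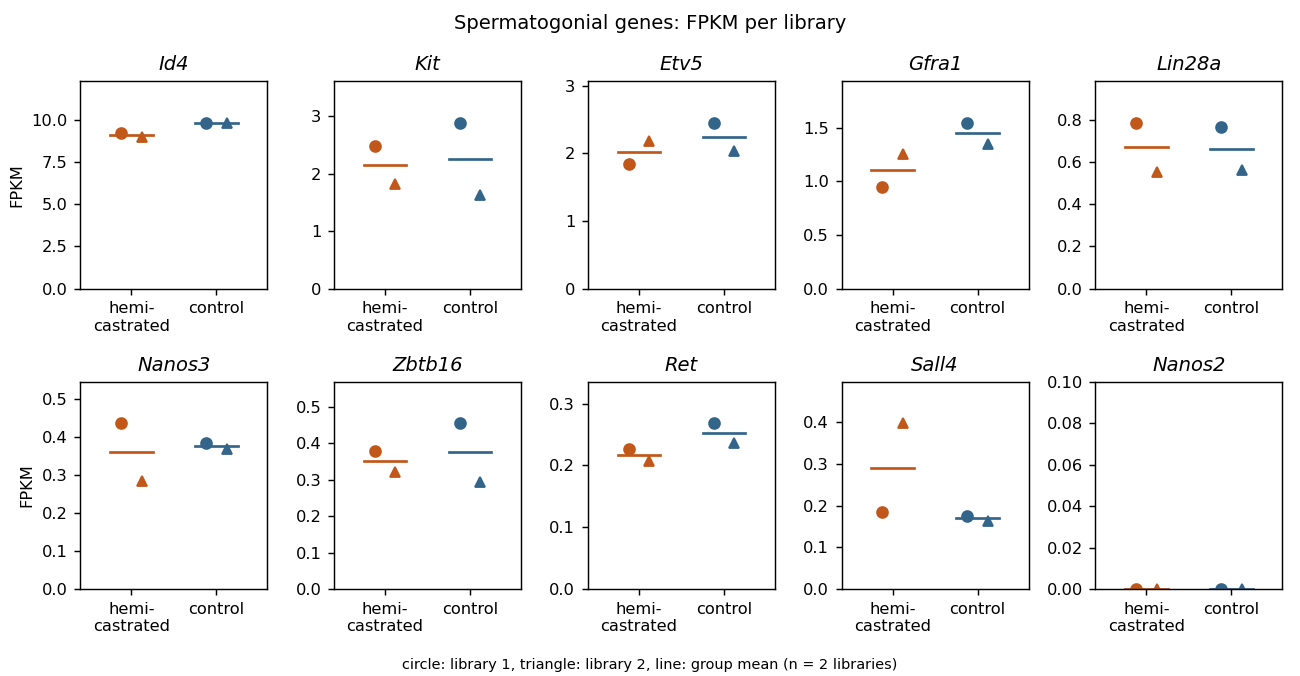
FPKM of each of the 10 genes in every library (circle, library 1; triangle, library 2; line, group mean of 2 libraries), hemicastrated left of control, each panel with its own axis from 0. The groups are separate in Gfra1, Id4, Ret and Sall4, and Nanos2 lies at 0 throughout.

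The GDNF receptor pair came first in the pathway and showed the lowest ratio. Gfra1 (ENSMUSG00000025089, chromosome 19, 58235604 to 58455909, minus strand, GRCm38) encodes the membrane-anchored co-receptor. It was at 0.945 and 1.26 FPKM in the hemicastrated libraries and at 1.55 and 1.35 FPKM in the controls. Both hemicastrated values lay below both control values, with means of 1.10 ± 0.22 and 1.45 ± 0.14 FPKM (SD, n = 2 each) or 76.1% of the control mean. The log2 fold change was -0.22 (SE 0.15, limma adjusted p = 0.686), with a 95% interval from -0.59 to 0.15 on the log2(FPKM + 1) scale. On that scale, which shrinks the changes of low genes, a halving of the control mean would be -0.51 and a doubling 0.67. A halving thus lay inside the interval and a doubling outside it. The log2 fold change of Gfra1 was -0.11 without hemicastrated 1, -0.33 without hemicastrated 2, -0.37 when 0.1 replaced 1 as pseudocount and -0.12 after quantile normalization. The antisense gene Gm16277 covers 416 of 5476 exonic bases, and without strand the 2 cannot be told apart there.

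Ret (ENSMUSG00000030110, chromosome 6, 118151745 to 118197718, minus strand) encodes the kinase that the GDNF and co-receptor complex activates. It was at 0.227 and 0.207 FPKM in the hemicastrated libraries and at 0.269 and 0.236 FPKM in the controls. The groups did not overlap, and the mean was 86.1% of the control mean. In the fit of all genes the log2 fold change was -0.04 (95% interval -0.18 to 0.10, limma adjusted p = 0.831). Ret was the lower of the pair in every library. The level of Gfra1 was 4.16 and 6.08 times that of Ret in the hemicastrated libraries and 5.77 and 5.71 times in the controls.

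Of the transcription regulators of self-renewal, Id4 and Etv5 were tested and did not pass. Id4 (ENSMUSG00000021379, chromosome 13, 48261228 to 48266026, plus strand) encodes an inhibitor of basic helix-loop-helix factors that marks stem cells among spermatogonia. It was at 9.21 and 8.96 FPKM in the hemicastrated libraries and at 9.80 and 9.84 FPKM in the controls. The groups were separate by a narrow margin, at 9.09 ± 0.18 and 9.82 ± 0.03 FPKM (SD, n = 2 each). The log2 fold change of Id4 was -0.10 (SE 0.11, 95% interval -0.36 to 0.16, limma adjusted p = 0.803). Both a halving (-0.87) and a doubling (0.93) lay outside the interval, also without any 1 library and with smaller pseudocounts, so Id4 gave the tightest bound relative to its level.

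Etv5 (ENSMUSG00000013089, chromosome 16, 22381309 to 22439719, minus strand) is an ETS family factor induced by GDNF, and Sertoli cells use it too. It was at 1.84 and 2.19 FPKM in the hemicastrated libraries and at 2.45 and 2.03 FPKM in the controls, and the groups overlapped. The log2 fold change of Etv5 was -0.10 (95% interval -0.47 to 0.26, limma adjusted p = 0.858), with a halving at -0.61 and a doubling at 0.76 outside it. Without hemicastrated 2 or without control 2 the interval reached down to -0.64 and -0.68, and a halving was inside it. Of the 50-base words in its transcripts, 24.5% also occur in the gene Gm4798, so its reads may have been split between the 2. Of 9 Sertoli cell genes 6 were tested and 0 passed. The 9 summed to 219 and 215 FPKM in the hemicastrated libraries and 160 and 169 FPKM in the controls. Most of the difference between these sums lay in Cst12, the highest of the 9. Cst12 was at 107 and 109 FPKM in the hemicastrated libraries and 56.3 and 74.5 FPKM in the controls. Of the 6 log2 fold changes 4 were above 0 and 2, those of Cldn11 and Gata4, below it. The part of Sertoli cells in the value of Etv5 was not tested.

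Zbtb16 (ENSMUSG00000066687, chromosome 9), the zinc finger repressor also called PLZF that keeps spermatogonia from differentiating, was at 0.379 and 0.322 FPKM in the hemicastrated libraries and at 0.455 and 0.294 FPKM in the controls. The controls enclosed both hemicastrated values. Sall4 (ENSMUSG00000027547, chromosome 2), a zinc finger factor shared by undifferentiated and early differentiating spermatogonia, was at 0.184 and 0.398 FPKM in the hemicastrated libraries and at 0.175 and 0.164 FPKM in the controls. Its groups did not overlap, but a single library, hemicastrated 2, stood above the other 3, and without it the log2 difference was 0.02 in place of 0.14 (limma adjusted p = 0.705 with all 4 in the fit of all genes). With a pseudocount of 0.1 the difference of Sall4 was 0.48. Both a halving and a doubling of Sall4 lay inside its 95% interval, from -0.11 to 0.39. The antisense-strand gene Gm14261 covers 526 of its 5536 exonic bases.

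The RNA-binding regulators were low or at 0. Nanos2 (ENSMUSG00000051965, chromosome 7, 18987400 to 18988962, plus strand), which represses differentiation in the most primitive spermatogonia, was listed at 0 in all 4 libraries. The antisense gene Gm45058 covers 766 of its 1563 exonic bases, and a listed 0 can be a failed estimate, so no level or limit can be given for Nanos2. Nanos3 (ENSMUSG00000056155, chromosome 8), its relative in undifferentiated spermatogonia, was at 0.437 and 0.285 FPKM in the hemicastrated libraries and at 0.385 and 0.369 FPKM in the controls. The hemicastrated values enclosed those of the controls. Lin28a (ENSMUSG00000050966, chromosome 4), which blocks let-7 microRNA maturation and marks progenitors, was at 0.786 and 0.550 FPKM in the hemicastrated libraries and at 0.763 and 0.563 FPKM in the controls. Its library 1 was the higher one in each group, and the group means were 0.668 and 0.663 FPKM.

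For the 5 genes with a mean under 1 FPKM the intervals came from the fit of all genes above 0. Their adjusted p ranged from 0.705 for Sall4 to 0.999 for Lin28a (limma). A halving lay inside the interval of each of the 5, while a doubling lay outside it in Zbtb16, Ret, Nanos3 and Lin28a. With a pseudocount of 0.1 a halving was outside the interval of Lin28a and Sall4 and still inside it for Zbtb16, Ret and Nanos3.

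**Figure D3:**
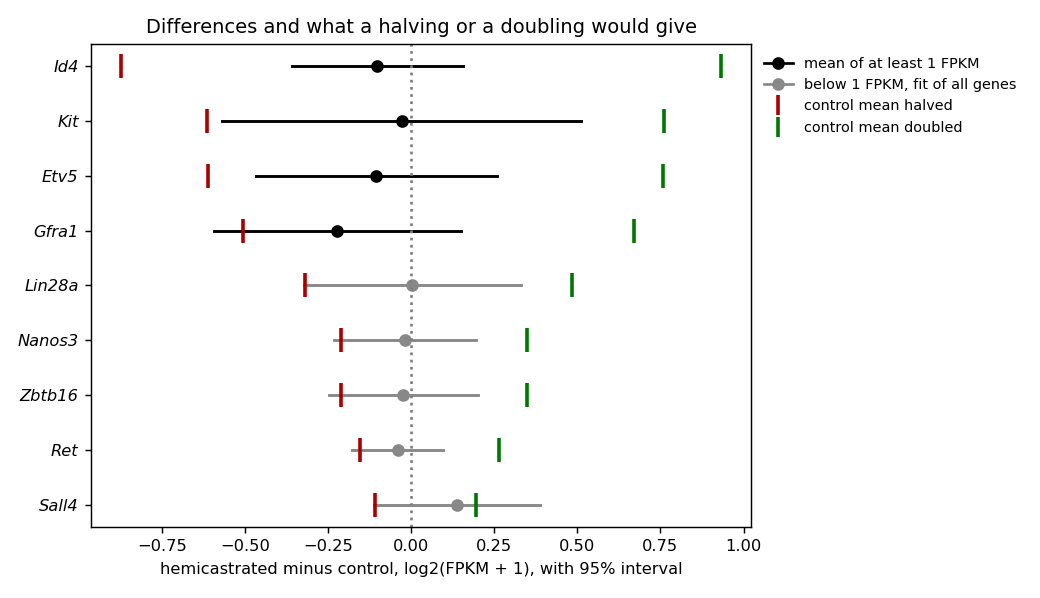
Difference in log2(FPKM + 1), hemicastrated minus control, with its 95% interval from limma, for genes averaging 1 FPKM or more (black) and less (grey, fit of all genes). Ticks mark where a halving (red) or a doubling (green) of the control mean would lie: the halving tick is outside the interval in Id4, Kit and Etv5 and inside it in the other 6 genes.

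Kit (ENSMUSG00000005672, chromosome 5, 75574916 to 75656722, plus strand), the receptor that marks the change to differentiating spermatogonia, had the widest gap in FPKM between the libraries of 1 group. It was at 2.48 and 1.83 FPKM in the hemicastrated libraries and at 2.89 and 1.63 FPKM in the controls. The controls enclosed the hemicastrated values, and the means were 2.15 ± 0.46 and 2.26 ± 0.89 FPKM (SD, n = 2 each). The log2 fold change of Kit was -0.03 (SE 0.22, 95% interval -0.57 to 0.51, limma adjusted p = 0.981). A halving (-0.61) lay just outside the interval, but inside it without hemicastrated 1, without control 2 and with no limit on low values, and without control 1 a doubling was inside it. Its sign turned with the library left out: 0.25 without control 1, 0.12 without hemicastrated 2, -0.18 without hemicastrated 1 and -0.31 without control 2.

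Kit is also made by Leydig cells, by mast cells and, as a short form, by spermatids, and the gene-level value adds its 8 annotated transcripts together. Of 6 Leydig cell genes 0 passed the test, and they summed to 1889 and 1785 FPKM in the hemicastrated libraries and 1616 and 1519 FPKM in the controls. Most of that sum is the hormone gene Insl3, at 1609 and 1484 FPKM in the hemicastrated libraries and 1272 and 1232 FPKM in the controls (limma adjusted p = 0.241). Star was also higher in both hemicastrated libraries, at 26.8 and 26.1 FPKM, against 22.2 and 17.0 FPKM in the controls (limma adjusted p = 0.335). The other 4 of the 6 log2 fold changes were below 0 (median of the 6, -0.07). Among these 4, the receptor gene Lhcgr was at 1.30 and 2.13 FPKM in the hemicastrated libraries and 5.34 and 2.34 FPKM in the controls (limma adjusted p = 0.467). Of 6 mast cell genes only Hdc had a mean of at least 1 FPKM. The proteases Mcpt4, Tpsb2 and Cma1 were at 0 in both hemicastrated libraries and between 0.0578 and 0.401 FPKM in the controls, and Ms4a2 was at 0 in all 4. The mast cell genes summed to 6.55 and 7.25 FPKM in the hemicastrated libraries and 7.70 and 6.55 FPKM in the controls, nearly all of it Hdc. Their part in the value of Kit was not tested.

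**Figure D4:**
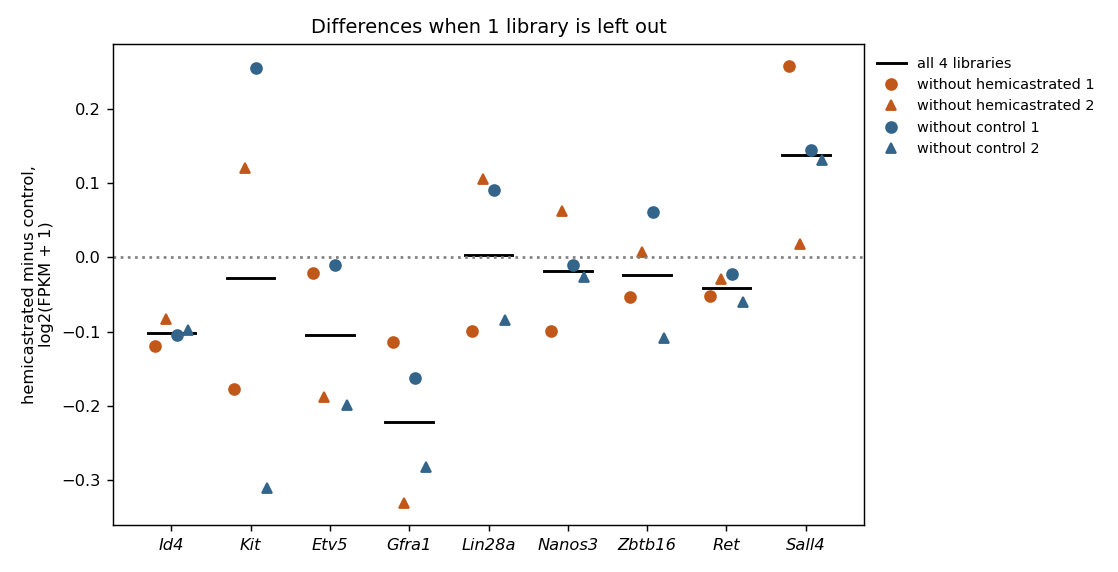
Difference in log2(FPKM + 1), hemicastrated minus control, for 9 genes with all 4 libraries (line) and with 1 library left out (points). Id4, Etv5, Gfra1 and Ret stay below 0 in all 4 cases and Sall4 above it, while Kit, Lin28a, Nanos3 and Zbtb16 lie on both sides.

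Ligands of the niche showed no called difference. Of 14 niche ligand genes, 6 were tested and 0 passed, and the median log2 fold change of the 6 was -0.03, beside -0.03 over all genes tested. Gdnf was at 0.103 and 0.165 FPKM in the hemicastrated libraries and at 0.0755 and 0.0903 FPKM in the controls (limma adjusted p = 0.717 in the fit of all genes). Both hemicastrated values of Gdnf were above both controls, while for Gfra1 and Ret both were below. Of the 14 niche ligand genes 2 were higher and 4 lower in this way, beside 14.8% and 24.5% of all genes above 0. Fgf2, a second growth factor for stem cells, was at 0.198 and 0.205 FPKM in the hemicastrated libraries and at 0.448 and 0.316 FPKM in the controls (limma adjusted p = 0.460 in the fit of all genes). Csf1, made by Leydig and myoid cells, was at 0.610 and 0.600 FPKM in the hemicastrated libraries and at 0.748 and 0.974 FPKM in the controls. Wnt6, a Sertoli cell ligand, was at 5.76 and 4.95 FPKM in the hemicastrated libraries and at 4.89 and 3.90 FPKM in the controls, with both hemicastrated values above both controls (log2 fold change 0.24, limma adjusted p = 0.655).

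Cxcl12, a chemokine that holds stem cells in the niche, was at 3.80 and 4.59 FPKM in the hemicastrated libraries and at 8.44 and 5.42 FPKM in the controls (log2 fold change -0.59, limma adjusted p = 0.387). Peritubular myoid and smooth muscle genes, given above, were low in the same libraries, and their part in the value of Cxcl12 was not tested. Kitl, the ligand of Kit, was at 1.78 and 2.32 FPKM in the hemicastrated libraries and at 1.91 and 3.25 FPKM in the controls (log2 fold change -0.21, limma adjusted p = 0.795). Within each group the library with the higher Kit had the lower Kitl, an order that 2 libraries in each group cannot test. The level of Kit was 1.39 and 0.787 times that of Kitl in the hemicastrated libraries and 1.51 and 0.501 times in the controls.

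Among 11 other receptor and co-receptor genes 8 were tested, 0 passed, and all 8 log2 fold changes were below 0 (median -0.17), while the 3 receptor genes under the limit had differences above 0. Fgfr2, a fibroblast growth factor receptor, was at 1.65 and 0.864 FPKM in the hemicastrated libraries and at 2.67 and 1.66 FPKM in the controls (limma adjusted p = 0.554). Gfra2, the co-receptor for neurturin, was at 5.92 and 6.36 FPKM in the hemicastrated libraries and at 6.86 and 7.21 FPKM in the controls (limma adjusted p = 0.684), a higher level than that of Gfra1 in every library. For the cell adhesion receptor Ncam1 the values were 0.980 and 1.22 FPKM in the hemicastrated libraries and 1.55 and 1.57 FPKM in the controls (limma adjusted p = 0.568). Ret and Gfra1 are also used by nerves, and 6 nerve and glia genes summed to 3.50 and 3.49 FPKM in the hemicastrated libraries and 3.61 and 3.76 FPKM in the controls.

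Other genes of undifferentiated spermatogonia were mostly near or below 1 FPKM. Of 33 listed genes, 31 were above 0 in a library, 9 were tested, 0 passed and 8 of the 9 log2 fold changes were below 0 (median -0.13). Of the 22 genes above 0 but under the limit 12 had a difference below 0 and 10 above it, and of all genes tested 56.6% were below 0. Of the GDNF targets, Lhx1 was at 0.933 and 1.58 FPKM in the hemicastrated libraries and at 1.82 and 1.46 FPKM in the controls (limma adjusted p = 0.726), and Bcl6b at 0.270 and 0.486 FPKM in the hemicastrated libraries and at 0.562 and 0.483 FPKM in the controls. Both showed the lowest value in hemicastrated 1, the library in which Gfra1 was also lowest, while Ret was lowest in hemicastrated 2. Such an order cannot be tested with 4 libraries. The surface proteins Epcam and Cd9, found on spermatogonia and on many epithelia, were at 9.51 and 7.44 FPKM and at 5.90 and 4.68 FPKM in the hemicastrated libraries, and at 12.02 and 11.8 FPKM and at 7.39 and 7.81 FPKM in the controls. Neither passed the test (limma adjusted p = 0.307 and 0.315), and the epididymal epithelium genes given above were lower in the same libraries. The part of such tissue in the values of Epcam and Cd9 was not tested.

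The progenitor genes Neurog3 and Sox3 did not separate the groups. Neurog3 was at 0.0993 FPKM in hemicastrated 1 and listed at 0 in hemicastrated 2, against 0.0352 and 0.0838 FPKM in the controls, and Sox3 was at 0.662 and 0.369 FPKM in the hemicastrated libraries and at 0.715 and 0.274 FPKM in the controls. Foxo1, a stem cell regulator downstream of growth factor signalling, was at 0.482 and 0.399 FPKM in the hemicastrated libraries and at 0.473 and 0.353 FPKM in the controls. Utf1 was at 0.651 and 0.738 FPKM in the hemicastrated libraries and at 0.948 and 0.705 FPKM in the controls, and Upp1 at 0.573 and 0.420 FPKM in the hemicastrated libraries and at 0.744 and 0.725 FPKM in the controls. Pou5f1 was at 0.563 and 0.927 FPKM in the hemicastrated libraries, at 0.414 FPKM in control 1 and listed at 0 in control 2. Uchl1, a ubiquitin hydrolase abundant in spermatogonia, was at 36.9 and 34.1 FPKM in the hemicastrated libraries and at 37.6 and 38.0 FPKM in the controls (log2 fold change -0.09, 95% interval -0.31 to 0.13, limma adjusted p = 0.804).

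Genes of differentiating spermatogonia were not called either. Of 14 listed genes 13 were tested and 0 passed, with 7 negative and 6 positive log2 fold changes and a median of -0.05. Stra8, induced by retinoic acid, was at 4.77 and 4.98 FPKM in the hemicastrated libraries and at 5.002 and 4.14 FPKM in the controls (log2 fold change 0.08, 95% interval -0.25 to 0.41, limma adjusted p = 0.884). For Dmrt1, Sohlh1 and Sohlh2, transcription factors of spermatogonia, the groups overlapped and the log2 fold changes were -0.13, -0.07 and -0.05. The gene with the smallest p was the cyclin gene Ccnd2, at 0.479 and 0.663 FPKM in the hemicastrated libraries and at 1.33 and 2.10 FPKM in the controls (log2 fold change -0.78, limma adjusted p = 0.191). The germ cell genes Ddx4 and Dazl had log2 fold changes of 0.11 and -0.15 (limma adjusted p = 0.731 and 0.724).

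The 4 tested stem and progenitor genes had log2 fold changes below 0, with a median of -0.10, beside -0.03 over all genes tested. Of the 5 genes under the limit 3 had a difference below 0 and 2 above it. Genes of early spermatocytes, a stage after differentiating spermatogonia, had a median of 0.40 with 5 of 6 positive and 0 called. Sycp3 was at 90.7 and 73.1 FPKM in the hemicastrated libraries and 57.6 and 63.4 FPKM in the controls (limma adjusted p = 0.287). The difference between these stages was not tested.

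**Figure D5:**
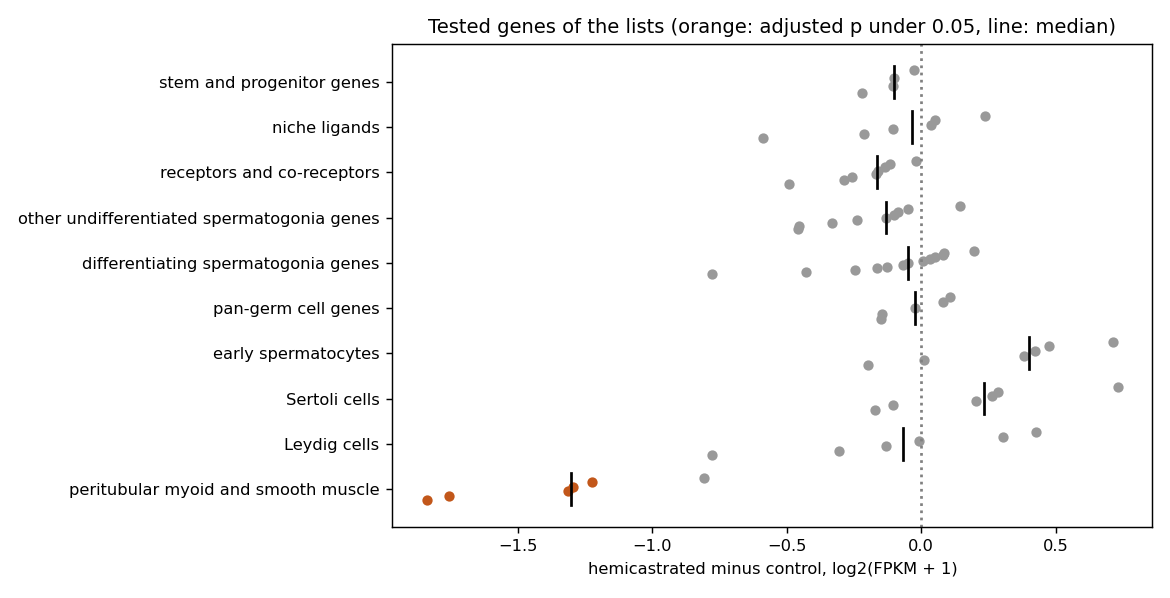
Difference in log2(FPKM + 1), hemicastrated minus control, for each tested gene of 10 lists (grey, not called; orange, adjusted p under 0.05; line, list median). The 4 stem and progenitor genes lie between -0.22 and -0.03 with no call. Among the lists drawn, orange points are in the peritubular myoid and smooth muscle list. The epididymal epithelium list, with its 4 called genes, is left out.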

How the data were processed

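Poly(A) RNA of 4 testes was sequenced in paired-end Illumina libraries with no step that marks the strand, per the labels' protocols. TopHat2 2.0.11 and Cufflinks 2.2.1 appear in the submitters' processing notes with the build GRCm38, without roles. The deposited values are FPKM, 1 per gene and library, computed by the authors, per the file headers. They carry no read counts, so depth and counting error are unknown, and summed FPKM ranged from 343105 to 353135. GENCODE M21 (GRCm38), which may differ from the authors' annotation, named 21806 of 22073 identifiers.

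Genes that averaged 1 FPKM or more were compared as log2(FPKM + 1) with limma 3.58.1 (R 4.3.3), with a variance trend and no covariate, two-sided, Benjamini-Hochberg adjusted over all genes tested, and checked on simulated data. Genes below that limit were read from the same fit without it. Fold changes are hemicastrated minus control. The 10 genes and all lists were chosen with earlier results of these data known. All 10 were named, and of each other list at most 4 tested genes with the smallest p plus a fixed set, beside markers of other cell types that are at or near 0. One gene of the nerve and glia list is not reported here. Overlapping genes and shared 50-base words came from GENCODE transcripts.

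Alternatives were pseudocounts of 0.1 and 0.5, no filter, a mean of at least 5 FPKM, quantile, TPM and median scaling, other variance models, the replicate number as a block, and leaving out each library. Added after seeing the data were sums without the called lower genes and no filter with a pseudocount of 0.1.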

Additional observations from a re-analysis of the deposited data

How the results depend on the processing

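No stem or progenitor gene passed the test in any of the 16 alternatives. Over all genes, 135 were called lower and 12 higher. Leaving out 1 library gave 78 to 156 lower and 0 to 26 higher genes, the lowest of both without control 2 (limma, with 1000 genes at an unadjusted p under 0.05). With fewer genes tested at a mean of at least 5 FPKM the counts were 63 and 7. Without a filter 3 genes were higher, and 2 with a pseudocount of 0.1 besides. The replicate number as a block gave 167 lower and 30 higher genes. The deviations of same-numbered libraries had r = 0.01 across 11343 genes, which are not independent. With 2 libraries in each group this value cannot show whether same-numbered libraries were handled together. The median log2 fold change of the tested stem and progenitor genes was -0.10, and -0.24 to -0.057 with 1 library left out, -0.033 under quantile normalization and -0.028 over the 9 genes with no filter. Kit changed sign under quantile normalization (0.073), median scaling (0.0081), without hemicastrated 2 (0.12) and without control 1 (0.25), with -0.31 at the other end without control 2, and the cause was not tested. Of the 61 alternative values of the 4 tested genes the other 57 kept their sign, and of 40 values of the 5 lower genes 5 moved by more than the spread, all of Ret or Sall4 and with a smaller pseudocount. No scaling moved the median of all genes by as much as 0.1 on the log2 scale.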

Other observations

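Cdh1, Thy1 and Glis3, from the list of undifferentiated spermatogonia genes, were picked after their values were seen for being lower in both hemicastrated libraries, and none passed the test. Of the 31 genes of that list above 0, the groups did not overlap in 9 with hemicastrated lower and in 4 with hemicastrated higher. Over all genes above 0 these shares were 24.5% and 14.8%. Epcam and Cd9, surface markers of that list given above, were also lower in both hemicastrated libraries. The groups overlapped for the surface marker Itga6, at 1.99 and 2.52 FPKM in the hemicastrated libraries and 2.36 and 2.36 FPKM in the controls. Cdh1, which encodes E-cadherin of spermatogonia and of epithelia, was at 0.258 and 0.208 FPKM in the hemicastrated libraries and at 0.964 and 1.07 FPKM in the controls (log2 fold change -0.71, limma adjusted p = 0.0752 in the fit of all genes). Thy1, a surface antigen of stem cells, lymphocytes and stroma, was at 0.0806 and 0.0710 FPKM in the hemicastrated libraries and at 0.429 and 0.238 FPKM in the controls (limma adjusted p = 0.340 in that fit). For the transcription factor gene Glis3 the values were 0.108 and 0.0465 FPKM in the hemicastrated libraries and 0.613 and 0.250 FPKM in the controls (limma adjusted p = 0.441 in that fit). The 7 epididymal epithelium genes summed to 6.30 and 8.30 FPKM in the hemicastrated libraries and 1094 and 1507 FPKM in the controls, and the part of such tissue in these values was not tested.

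The level of Gfra1 relative to its ligand gene Gdnf was 9.22 and 7.64 in the hemicastrated libraries and 20.5 and 14.9 in the controls. The Gdnf values behind these ratios are at or below 0.165 FPKM in every library, and the ratio was chosen after the values were seen, so no test is given.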
